A study of Mus musculus with 7 samples.

Results

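Radial glia marker genes were followed through RNA-seq libraries of mouse embryonic (E16.5) cortical neurons from 4 KAT7 mutant and 3 wild type mice. The set holds 10 genes, chosen by name (Sox2, Sox9, Nes, Vim, Fabp7, Slc1a3, Hopx, Ptprz1, Nr2e1 and Id4), and all 10 were found among the 26286 genes of the deposited table and passed the filter on low counts. KAT7 is a MYST-type enzyme that acetylates histones. All 7 mice were male and of the C57BL/6 strain, with the brain given as the tissue and cortical neurons as the cell type. The KAT7 allele, any Cre driver, and how the neurons were obtained are not stated in the labels. The replicates were taken as separate mice, since the design text counts them as mice.

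Radial glia are the neural stem cells of the embryonic cortex. Their cell bodies line the ventricle, their long fibres guide newborn neurons outwards, and their divisions give rise to intermediate progenitors, neurons and, later, glia. Notch signalling and transcription factors such as SOX2 keep them undifferentiated, and intermediate filaments, a fatty acid-binding protein and a glutamate transporter are their classical markers. Several of these genes are also used by other cells: astrocytes, oligodendrocyte precursors and, for Vim, vessels and meninges.

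Libraries held 8272487 to 8813060 counts. Kat7 had 3, 4, 3 and 10 counts in KAT7 mutant replicates 1 to 4, against 869, 848 and 854 in wild type replicates 1 to 3. Of 13681 tested genes, 28.9% were called between genotypes by the edgeR quasi-likelihood test at a Benjamini-Hochberg adjusted p under 0.05, 13.1% higher and 15.8% lower in KAT7 mutants. The median log2 fold change of all tested genes was 0.0025. In 35.3% of tested genes the libraries of the genotypes did not overlap.

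Of the 10 radial glia markers 5 fell in KAT7 mutants, 0 rose and 5 were not called, against 15.8% lower and 13.1% higher among all tested genes. The 10 were chosen with earlier results of these data known, so these counts are a description. The genes that fell were Ptprz1, Slc1a3, Vim, Nes and Id4. The median log2 fold change of the 10 was -0.38, with single genes between -0.70 for Ptprz1 and 0.07 for Sox2. Only for Ptprz1, Slc1a3, Vim and Nr2e1 did every mutant library lie below every wild type library, as in 18.8% of all tested genes. The calls of Ptprz1, Slc1a3 and Vim held in each of 17 alternatives, whereas those of Nes and Id4 did not. In bulk RNA, fewer cells of a type and less RNA per cell cannot be told apart.

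**Figure D1:**
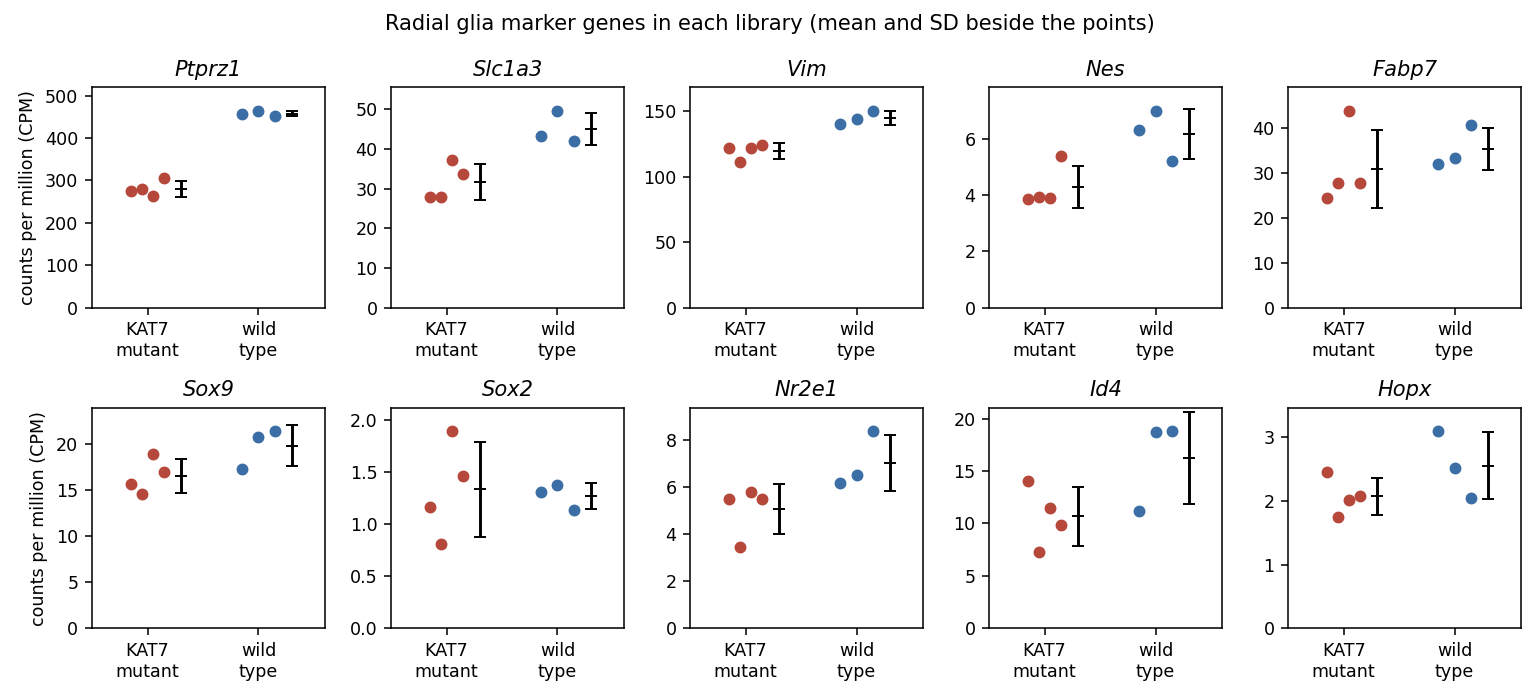
Level in CPM (counts scaled to a common library total, y axes from 0, a separate scale for each gene) of the 10 radial glia marker genes in 4 KAT7 mutant libraries (red, left) and 3 wild type libraries (blue, right), with the mean and SD beside the points. Ptprz1 had 262 to 306 CPM in the mutant libraries and 451 to 464 CPM in the wild type libraries, while the points of Sox2 and Fabp7 overlap.

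The median level of the radial glia markers was small beside that of the neuron markers. On a per-length scale (RPKM, the CPM of a gene divided by its deposited length in kilobases), the median of the 10 markers was 5.21 RPKM in KAT7 mutants and 7.28 RPKM in wild type. The median of 16 neuron markers, which include Tubb3, Map2 and Dcx, was 163 RPKM in KAT7 mutants and 249 RPKM in wild type. The gap between these medians reflects which genes sat in the middle of the list, since the median log2 fold change of the 16 was 0.00, with 6 higher, 3 lower and 7 not called. Stmn2, a microtubule regulator gene, had the largest fall of the list, with 172 RPKM in KAT7 mutants and 701 RPKM in wild type, and Tbr1, a transcription factor gene of deep-layer neurons, had the largest rise, with 121 RPKM in KAT7 mutants and 85.4 RPKM in wild type. Neuron markers were thus present at high levels, and the label gives cortical neurons as the cell type. Single genes of the 2 lists overlapped in level: in wild type Vim averaged 79.0 RPKM and the neuron marker Rbfox3 28.6 RPKM.

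The order of the markers by level was almost the same in both genotypes. In KAT7 mutants Vim averaged 65.3 RPKM, Fabp7 40.4, Ptprz1 34.8, Slc1a3 7.52, Id4 6.43, Sox9 3.99, Nr2e1 1.57, Hopx 1.37, Nes 0.697 and Sox2 0.543 RPKM. In wild type Vim averaged 79.0 RPKM, Ptprz1 56.6, Fabp7 46.3, Slc1a3 10.7, Id4 9.78, Sox9 4.79, Nr2e1 2.17, Hopx 1.69, Nes 1.01 and Sox2 0.517 RPKM. Fabp7 and Ptprz1 changed places, and their ranges overlapped in KAT7 mutants (31.9 to 57.4 RPKM for Fabp7 and 32.5 to 37.9 RPKM for Ptprz1) but not in wild type. The neighbours Slc1a3 and Id4, and Nr2e1 and Hopx, overlapped in both genotypes. Id4 and Sox9, and Nes and Sox2, overlapped in KAT7 mutants only.

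The start regions of the markers were read from the RefSeq promoter table of build GRCm38.p6, which held 9 of the 10 genes, all but Sox9. Windows of 250 bases before each start were searched on both strands for the core of RBPJ, the DNA-binding factor of Notch signalling (TGGGAA), for cores of SOX factors (ACAATG and ACAAAG) and for the core of TLX, the product of Nr2e1 (AAGTCA). The SOX cores begin with the same letters, and no match in these windows overlapped another. Hopx had a pair of windows and the other genes 1 each. The RBPJ core was found for 3 genes, Fabp7, Nr2e1 and Id4, and stood in 21.6% of 32851 windows of the same length. One TLX core was found for Fabp7 (13.1% of windows) and one SOX core, ACAAAG, for Sox2 (5408 windows), while ACAATG (10.7% of windows) was found for 0 of them. The windows of the genes with an RBPJ core are shown beside that of Ptprz1, which had the largest fall and no match. Capitals mark the matches on either strand.
Fabp7 (chr10:57784673-57784922, plus strand): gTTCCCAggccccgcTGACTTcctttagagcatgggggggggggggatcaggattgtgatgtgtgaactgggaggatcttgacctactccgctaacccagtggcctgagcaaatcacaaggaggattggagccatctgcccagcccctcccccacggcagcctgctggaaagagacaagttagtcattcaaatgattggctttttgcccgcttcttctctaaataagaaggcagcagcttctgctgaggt
Nr2e1 (chr10:42583591-42583840, minus strand): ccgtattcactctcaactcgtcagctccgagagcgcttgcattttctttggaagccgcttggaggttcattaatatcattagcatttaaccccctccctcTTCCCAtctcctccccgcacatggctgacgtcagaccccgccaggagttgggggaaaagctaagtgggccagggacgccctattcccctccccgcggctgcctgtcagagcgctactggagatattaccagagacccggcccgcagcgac
Id4 (chr13:48260866-48261115, plus strand): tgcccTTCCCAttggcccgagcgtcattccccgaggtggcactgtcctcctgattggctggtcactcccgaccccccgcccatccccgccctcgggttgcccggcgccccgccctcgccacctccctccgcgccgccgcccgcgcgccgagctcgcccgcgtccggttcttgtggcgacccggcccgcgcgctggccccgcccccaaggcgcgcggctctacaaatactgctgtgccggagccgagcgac
Ptprz1 (chr6:22875252-22875501, plus strand): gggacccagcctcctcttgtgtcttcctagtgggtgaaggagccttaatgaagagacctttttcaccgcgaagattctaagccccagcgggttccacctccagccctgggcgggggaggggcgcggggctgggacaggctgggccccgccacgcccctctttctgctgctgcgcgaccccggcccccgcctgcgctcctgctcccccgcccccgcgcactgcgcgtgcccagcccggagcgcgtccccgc

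The windows differed in base composition. That of Id4 held 35 CpG pairs at 75.6% G and C and that of Ptprz1 22 at 71.6%, whereas those of Fabp7 and Slc1a3 held 4 and 2 CpG pairs, against a median of 6 over all windows. Of the 3 genes with an RBPJ core, Id4 fell and Fabp7 and Nr2e1 were not called.

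Ptprz1 encodes a receptor-type tyrosine phosphatase of radial glia and oligodendrocyte precursors, and is known in human cortex as a marker of outer radial glia. It had 274, 279, 262 and 306 CPM in KAT7 mutant replicates 1 to 4, against 456, 464 and 451 CPM in wild type replicates 1 to 3. All mutant libraries were lower, and the gap between genotypes was wider than the spread within either. The log2 fold change was -0.70 ± 0.05 (SE), 61.4% of the wild type level, with an edgeR adjusted p of 2.98e-09. Ptprz1 alone made up 51.6% to 58.5% of the summed CPM of the 10 markers in KAT7 mutants and 60.9% to 63.6% in wild type. The sum was 477 to 533 CPM in KAT7 mutants and 717 to 748 CPM in wild type. Without Ptprz1 it was 198 to 246 CPM in KAT7 mutants and 261 to 290 CPM in wild type, so the sums of the remaining 9 genes did not overlap either.

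Proteins that bind PTPRZ1 were listed with partners of the other markers. Of 11 tested genes in that list 5 fell, 1 rose and 5 were not called (54.5% called, against 28.9% of all tested genes). The median log2 fold change of the list was -0.38. Mdk and Ptn, which encode midkine and pleiotrophin, the growth factor ligands of PTPRZ1, both fell. Mdk had 19.9, 15.7, 17.5 and 17.2 CPM in KAT7 mutant replicates 1 to 4, against 52.4, 49.2 and 50.2 CPM in wild type replicates 1 to 3, a log2 fold change of -1.53 ± 0.08 (SE, edgeR adjusted p = 4.16e-11). Ptn, named after its values were seen, averaged 146 ± 11.4 CPM in KAT7 mutants (SD, n = 4) and 212 ± 7.79 CPM in wild type (SD, n = 3). The matrix ligand gene Tnc fell by 1.37 on the log2 scale, and Cntn1, a neuronal adhesion protein that binds PTPRZ1, fell by 1.07. Nrcam, another neuronal adhesion gene, rose by 0.18 and lost that call without wild type replicate 3. The fifth gene that fell was Tcf4, a bHLH partner of ID proteins (log2 fold change -0.38), also named after its values were seen.

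Slc1a3 encodes GLAST, the glutamate transporter of radial glia and astrocytes. It had 27.9, 27.8, 37.1 and 33.6 CPM in KAT7 mutant replicates 1 to 4, against 43.3, 49.5 and 41.9 CPM in wild type replicates 1 to 3. The groups did not overlap, and mutant replicate 3 came nearest to the wild type libraries. The log2 fold change was -0.51 ± 0.10 (SE, edgeR adjusted p = 0.000437). Its relatives split: the neuronal transporter gene Slc1a1 fell by 0.39 on the log2 scale, and Slc1a2, the other glial glutamate transporter gene, was not called (log2 fold change 0.02).

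Vim and Nes encode the intermediate filament proteins vimentin and nestin of the radial fibre. Vim had 122, 111, 122 and 125 CPM in KAT7 mutant replicates 1 to 4, against 140, 144 and 150 CPM in wild type replicates 1 to 3. The groups did not overlap, and the fall was small: the log2 fold change was -0.28 ± 0.05 (SE), 82.6% of the wild type level, with an edgeR adjusted p of 0.000649. Nes was much less abundant, with 33, 34, 33 and 44 counts in KAT7 mutant replicates 1 to 4, against 53, 61 and 46 counts in wild type replicates 1 to 3. In CPM these were 3.86, 3.94, 3.90 and 5.38 in KAT7 mutants and 6.29, 6.98 and 5.20 in wild type, so mutant replicate 4 stood above wild type replicate 3. The log2 fold change was -0.53 ± 0.18 (SE), with an edgeR adjusted p of 0.0328. That call was lost by DESeq2 (adjusted p = 0.115) and without KAT7 mutant replicate 1, 2 or 3 or wild type replicate 1 or 2. The adjusted p of Nes was 0.015 to 0.154 over its alternatives, and its log2 fold change -0.66 to -0.43.

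The family list held 4 other intermediate filament genes, and all 4 fell. Gfap, the filament of mature astrocytes and of some radial glia, had 1.64, 1.97, 3.66 and 1.96 CPM in KAT7 mutant replicates 1 to 4, against 7.24, 10.2 and 5.09 CPM in wild type replicates 1 to 3, a log2 fold change of -1.70 ± 0.26 (SE, edgeR adjusted p = 5.23e-05). The neuronal filament genes Nefl, Ina and Nefm fell by 0.34, 0.33 and 0.25 on the log2 scale, Ina and Nefm being named after their values were seen. With wild type replicate 1 left out, Nefm was no longer called (adjusted p = 0.129 by edgeR). Synm, a filament gene of another list, was not called (log2 fold change -0.11).

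Fabp7 encodes the brain lipid-binding protein of radial glia, a known target of Notch signalling. It had 24.3, 27.6, 43.7 and 27.6 CPM in KAT7 mutant replicates 1 to 4, against 31.9, 33.3 and 40.6 CPM in wild type replicates 1 to 3. KAT7 mutant replicate 3 was the highest of all 7 libraries and the other mutant libraries were the 3 lowest. The gene was not called (log2 fold change -0.20, 95% interval -0.50 to 0.10, edgeR adjusted p = 0.331). Without mutant replicate 3 it was called, at -0.42 with an edgeR adjusted p of 0.00368, with 0.00368 to 0.760 across alternatives. Its relatives Fabp5 and Fabp3 were not called (log2 fold changes -0.03 and -0.26).

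Sox2 and Sox9 encode HMG-box transcription factors, SOX2 of stem cell maintenance and SOX9 of stem cells and the switch to glia. Sox2 was close to the limit of detection, with 10, 7, 16 and 12 counts in KAT7 mutant replicates 1 to 4, against 11, 12 and 10 counts in wild type replicates 1 to 3. The genotypes overlapped, and the log2 fold change of 0.07 had a 95% interval of -0.64 to 0.77 (edgeR adjusted p = 0.906). Its value was -0.15 without KAT7 mutant replicate 3 and -0.0097 without wild type replicate 3. The gene lies within Sox2ot, a long non-coding RNA gene, and reads of the pair were not separated here.

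Sox9 had 15.7, 14.6, 18.9 and 17.0 CPM in KAT7 mutant replicates 1 to 4, against 17.3, 20.8 and 21.4 CPM in wild type replicates 1 to 3. Only mutant replicate 3 reached into the wild type range. The gene was not called (log2 fold change -0.26, 95% interval -0.50 to -0.03, edgeR adjusted p = 0.0845). It was called without KAT7 mutant replicate 3 (-0.34, adjusted p = 0.0378) or wild type replicate 1 (-0.36, adjusted p = 0.0347), with 0.0347 to 0.273 across alternatives. Of their relatives, Sox1, Sox3 and Sox8 were not called (log2 fold changes 0.21, -0.69 and -0.02). Sox10, a gene of the oligodendrocyte lineage, rose by 1.87 on the log2 scale from a low level, at 1.05 to 2.13 CPM in KAT7 mutants and 0.339 to 0.458 CPM in wild type, and did not pass the count filter, so was not tested, without KAT7 mutant replicate 2, 3 or 4.

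Nr2e1 encodes TLX, an orphan nuclear receptor that keeps neural stem cells dividing. It had 47, 30, 49 and 45 counts in KAT7 mutant replicates 1 to 4, against 52, 57 and 74 counts in wild type replicates 1 to 3. In CPM these were 5.49, 3.48, 5.79 and 5.50 in KAT7 mutants and 6.17, 6.52 and 8.37 in wild type, so the groups did not overlap. The gene was nevertheless not called (log2 fold change -0.47, 95% interval -0.86 to -0.09, edgeR adjusted p = 0.0601). It passed the threshold without KAT7 mutant replicate 3 (-0.55, adjusted p = 0.0472) and with no count filter (-0.48, adjusted p = 0.0354), with 0.0354 to 0.282 across alternatives.

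Id4 encodes an inhibitor of bHLH transcription factors. It had 14.0, 7.30, 11.5 and 9.90 CPM in KAT7 mutant replicates 1 to 4, against 11.2, 18.8 and 18.8 CPM in wild type replicates 1 to 3. Wild type replicate 1 lay within the mutant range, so the groups overlapped. The log2 fold change was -0.61 ± 0.18 (SE, edgeR adjusted p = 0.0171). The call was lost in the robust edgeR fit (adjusted p = 0.0863), with a replicate block (-0.57, 0.0693), without KAT7 mutant replicate 2 (-0.46, 0.0563), without wild type replicate 2 (-0.50, 0.109) and without wild type replicate 3 (-0.49, 0.0989), with 6.04e-05 to 0.109 across alternatives. Among its relatives Id2 rose, at 454 ± 30.3 CPM in KAT7 mutants (SD, n = 4) and 394 ± 6.13 CPM in wild type (SD, n = 3). Id1 and Id3 were not called (log2 fold changes 0.44 and 0.12).

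Hopx encodes a small homeodomain protein without DNA binding of its own, a marker of outer radial glia in human cortex. It had 21, 15, 17 and 17 counts in KAT7 mutant replicates 1 to 4, against 26, 22 and 18 counts in wild type replicates 1 to 3. The groups overlapped and the gene was not called (log2 fold change -0.29, 95% interval -0.82 to 0.23, edgeR adjusted p = 0.415). In the family list that holds these relatives, 6 of 18 tested genes fell, 3 rose and 9 were not called, with a median of -0.03. The called share of that list was 50%, against 28.9% of all tested genes. The third gene of the list that rose was Ptprg, a phosphatase related to Ptprz1, at 64.7 ± 4.55 CPM in KAT7 mutants (SD, n = 4) and 42.7 ± 3.38 CPM in wild type (SD, n = 3).

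Libraries of a genotype differed in the level of the markers. KAT7 mutant replicate 2 was the lowest mutant library for 7 of the 10 genes and lay below the 7-library mean for all 10, while replicate 3 was the highest mutant library for 5. Relative to the 7-library mean of each gene, on the log2(CPM + 0.5) scale, the markers averaged -0.16, -0.38, -0.01 and -0.08 in KAT7 mutant replicates 1 to 4. They averaged 0.14, 0.27 and 0.23 in wild type replicates 1 to 3. Within KAT7 mutants single genes spanned 0.17 for Vim to 0.90 for Id4, and within wild type 0.04 for Ptprz1 to 0.73 for Id4. Among the 5 genes that fell, the ratio between Ptprz1 and Vim differed most between genotypes. The log2 ratio was 1.23 ± 0.10 in KAT7 mutants (SD, n = 4) and 1.66 ± 0.06 in wild type (SD, n = 3). These genes were picked by their calls, so the ratio is given as a description.

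**Figure D2:**
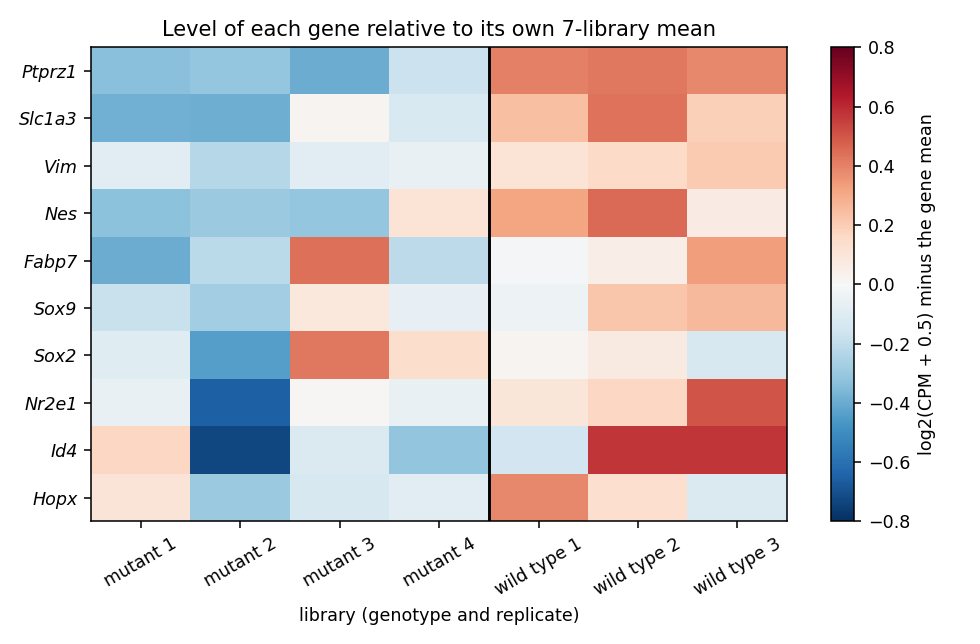
Level of each of the 10 radial glia marker genes (rows) in each library (columns, 4 KAT7 mutant left of the line and 3 wild type right of it) as log2(CPM + 0.5) minus the gene's 7-library mean, blue for lower and red for higher. Ptprz1 is split cleanly by genotype, while Fabp7 and Sox2 are highest in KAT7 mutant replicate 3, and the markers average -0.38 in KAT7 mutant replicate 2.

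Other genes of radial glia included larger falls than any of the 10 markers. Of 20 other radial glia genes 17 were tested, and 9 fell, 1 rose and 7 were not called, against a background of 15.8% lower and 13.1% higher. The median was -0.54, and 7 of them fell by more than 1 on the log2 scale, a size that 0 of the 10 markers reached. This list, like the 10 markers, was chosen with earlier results of these data known, so its counts and median are a description. Pax6, the transcription factor gene of cortical radial glia, had 7.95, 4.17, 5.32 and 4.52 CPM in KAT7 mutant replicates 1 to 4, against 14.7, 15.3 and 16.1 CPM in wild type replicates 1 to 3. All mutant libraries were lower, at a log2 fold change of -1.48 ± 0.16 (SE, edgeR adjusted p = 8.93e-07). Ttyh1, a membrane protein gene of neural stem cells, had 18.9, 15.3, 18.9 and 19.2 CPM in KAT7 mutants, against 46.4, 46.7 and 45.3 CPM in wild type, a log2 fold change of -1.35 ± 0.09 (SE, edgeR adjusted p = 3.84e-10). The patterning factor genes Gli3 and Emx2 fell by 1.33 and 1.10 on the log2 scale, and Mfge8, a secreted glycoprotein gene, by 1.07. Dbi, which encodes the acyl-CoA-binding protein, fell by 0.54. Il6st, the gp130 cytokine receptor gene, fell by 0.35 and lost that call without KAT7 mutant replicate 1 or wild type replicate 3. The endothelin receptor gene Ednrb rose by 1.10. Tnc and Hes5, which the lists of partners and of Notch signalling also hold, were the other two that fell. Prom1, Notch1 and Lifr were not called (log2 fold changes -0.07, -0.08 and -0.03).

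**Figure D3:**
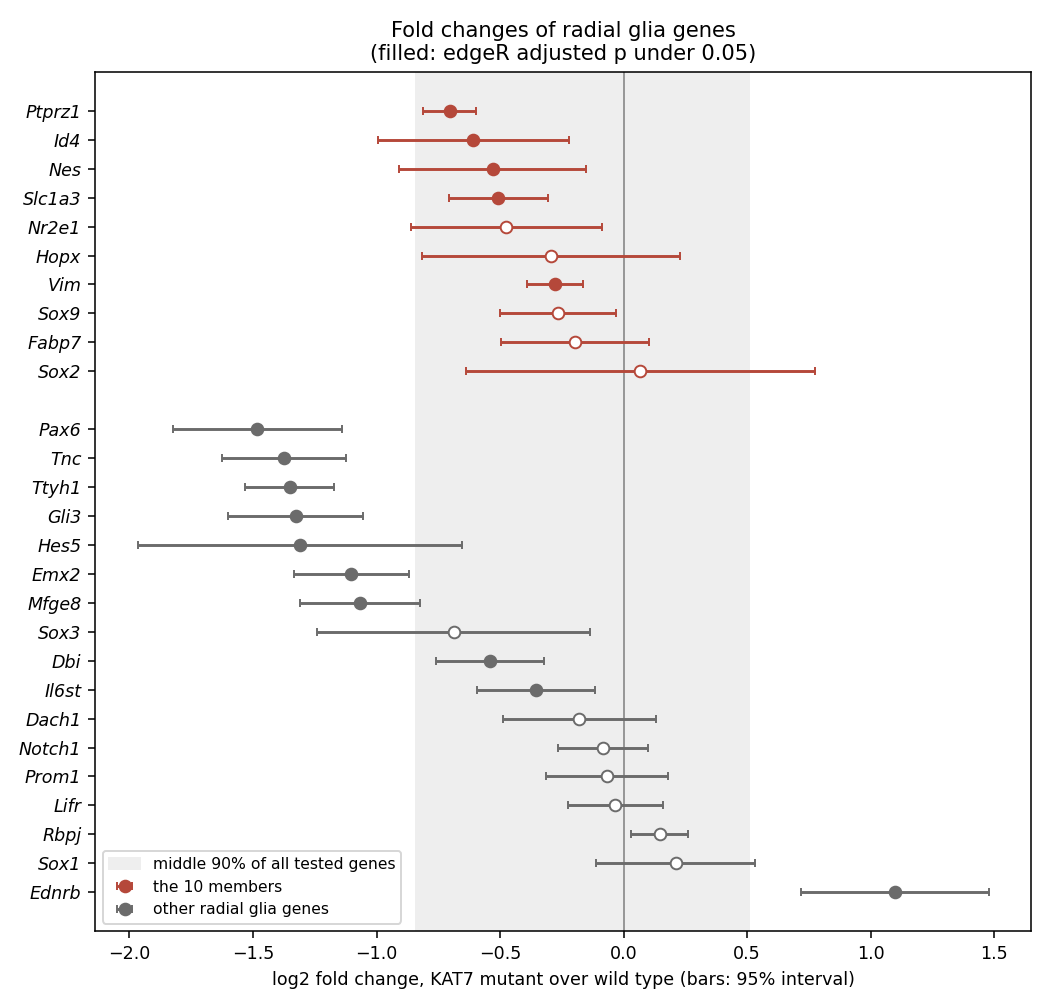
Log2 fold changes, KAT7 mutant over wild type, with 95% intervals, of the 10 radial glia marker genes (red) and 17 other radial glia genes (grey), filled where the edgeR adjusted p was under 0.05. The grey band holds the middle 90% of all tested genes, and the 10 markers lie inside it, from -0.70 to 0.07.

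Notch signalling acts on radial glia through the receptor NOTCH1 and the DNA-binding factor RBPJ, which drive Hes and Nrarp genes. Of 13 tested pathway genes 4 fell, 1 rose and 8 were not called, a called share of 38.5% against 28.9% of all tested genes. The targets Hes5 and Nrarp fell by 1.31 and 0.96 on the log2 scale, and Lfng, a glycosyltransferase gene that modifies Notch receptors, fell by 0.73. Of the other targets listed, Hey1 was not called (log2 fold change 0.20, edgeR adjusted p = 0.366), and Hes1 and Heyl did not pass the count filter. Hes5 was rare, with 5, 7, 12 and 15 counts in KAT7 mutant replicates 1 to 4, against 20, 28 and 27 counts in wild type replicates 1 to 3. Nrarp had 6.54 to 8.07 CPM in KAT7 mutants and 14.1 to 14.6 CPM in wild type. Notch3, named after its values were seen, fell by 0.55, and the ligand gene Jag1 rose by 0.52. The calls of Lfng, Notch3 and Jag1 were lost by DESeq2 and without several single libraries, so the falls numbered 2 without KAT7 mutant replicate 2, wild type replicate 2 or wild type replicate 3. Jag1 was lost without KAT7 mutant replicate 4, wild type replicate 1 or wild type replicate 2, and 3 genes rose without KAT7 mutant replicate 1. The receptor gene Notch1 and the ligand gene Dll1 were not called. Rbpj (log2 fold change 0.15, edgeR adjusted p = 0.0524) and the ligand gene Jag2 (0.21, edgeR adjusted p = 0.0545) were not called either. For both, every mutant library lay above every wild type library. Among the 13 tested genes the mutant libraries were all lower for 4 and all higher for 3, with a median log2 fold change of -0.08. The falls thus do not describe the list as a whole.

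Genes of cell division were listed because radial glia divide. Of 17 tested genes 4 fell, 1 rose and 12 were not called, with a median of -0.11. The called share, 29.4%, was near the 28.9% of all tested genes, so the counts show nothing particular to dividing cells, and the genes below are given for their own values. The replication helicase genes Mcm2 and Mcm3 fell by 0.70 and 0.62 on the log2 scale, and Ccnd2, the D-type cyclin gene of cortical progenitors, by 0.48. The other helicase genes listed, Mcm5 and Mcm6, were not called (log2 fold changes -0.18 and 0.15). Ccnd2 had 185 CPM in KAT7 mutant replicate 1 and 118 to 138 in the other mutant libraries, against 182 to 223 CPM in wild type, and was not called by DESeq2 or by the robust edgeR fit. Mki67, named after its values were seen, had 42.6 to 52.6 CPM in KAT7 mutants and 51.0 to 54.6 CPM in wild type, and its call was lost without any 1 of 6 libraries. Ccnd1 rose by 0.49, a call lost without KAT7 mutant replicate 4 or wild type replicate 1 or 2.

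**Figure D4:**
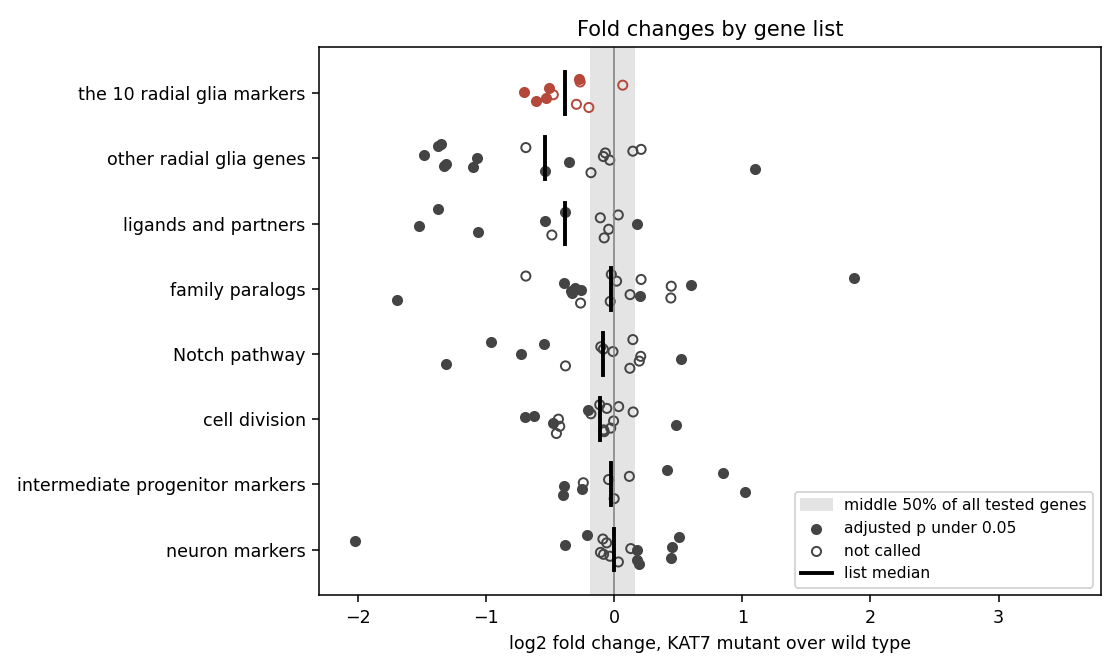
Log2 fold changes, KAT7 mutant over wild type, of the tested genes of 8 lists (1 point a gene, filled where the edgeR adjusted p was under 0.05), with list medians as black bars and the middle 50% of all tested genes in grey. The median of the 10 radial glia markers is -0.38 and that of other radial glia genes is -0.54, while those of neuron and intermediate progenitor markers are 0.00 and -0.02.

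Markers of other cell types, of which only some share the 10 genes, moved in more than 1 direction. The counts below stand beside 15.8% lower and 13.1% higher among all tested genes. The called shares of endothelial (25%) and mural and meningeal markers (33.3%) were near the 28.9% of all tested genes. Sums are over the tested genes of each list. Of astrocyte markers 4 of 9 tested fell and 1 rose, and their summed level was 354 to 370 CPM in KAT7 mutants and 294 to 316 CPM in wild type. Aldoc, which fell, had 7.59 to 12.9 CPM in KAT7 mutants and 15.8 to 24.0 CPM in wild type. Aqp4 and Gjb6 did not pass the count filter, so they are in neither the 9 nor the sum. Aqp4 had at most 3 counts in a mutant library and 7 to 14 in wild type, and Gjb6 had 0 in every library. Sparcl1, the astrocyte marker that rose, is in the sum and alone averaged 157 CPM in KAT7 mutants and 71.6 CPM in wild type. The higher astrocyte sum in KAT7 mutants therefore does not describe the list as a whole. Oligodendrocyte lineage markers, which share Ptprz1, rose in 4 and fell in 1 of 7, with sums of 24.5 to 42.9 CPM in KAT7 mutants and 18.8 to 23.6 CPM in wild type. Intermediate progenitor markers rose in 3 and fell in 3 of 10, with sums of 345 to 387 CPM in KAT7 mutants and 378 to 418 CPM in wild type. Neuron markers rose in 6 and fell in 3 of 16, with sums of 15889 to 16939 CPM in KAT7 mutants and 17070 to 17808 CPM in wild type. Stmn2, which is in that sum, alone averaged 328 CPM in KAT7 mutants and 1334 CPM in wild type, so the sums do not describe the list as a whole. Endothelial sums were 7.91 to 11.8 CPM in KAT7 mutants and 11.8 to 12.9 CPM in wild type (1 of 4 tested fell, 0 rose), and Cldn5 and Tek were at or near 0. The endothelial gene that fell was Slco1c1, with 2.95 to 4.87 CPM in KAT7 mutants and 6.29 to 7.58 CPM in wild type. Pecam1 went the other way without being called (log2 fold change 0.97, edgeR adjusted p = 0.0561). Kdr and Flt1 were not called (log2 fold changes 0.10 and -0.14). Mural and meningeal sums were 6.08 to 8.98 CPM in KAT7 mutants and 8.47 to 10.1 CPM in wild type (1 of 3 tested fell, 0 rose). Interneuron markers rose in 5 and fell in 0 of 8, with a median log2 fold change of 0.48 and sums of 275 to 381 CPM in KAT7 mutants and 201 to 297 CPM in wild type. Among them Gad2, a GABA synthesis enzyme gene, rose by 0.76 on the log2 scale (edgeR adjusted p = 3.92e-05), and 3 rose without wild type replicate 2 or wild type replicate 3. Microglia markers rose in 4 and fell in 0 of 6, with sums of 26.7 to 35.6 CPM in KAT7 mutants and 16.9 to 20.0 CPM in wild type, which did not overlap. Only 2 of them rose by DESeq2 or without KAT7 mutant replicate 3, KAT7 mutant replicate 4 or wild type replicate 1, and P2ry12 and Tmem119 were at or near 0. Blood cell sums were 52.5 to 162 CPM in KAT7 mutants and 22.2 to 129 CPM in wild type. Choroid plexus and ependymal sums were 6.85 to 26.5 CPM in KAT7 mutants and 5.22 to 13.5 CPM in wild type (2 of 6 genes tested). The part of any of these cell types in the changes of the 10 markers was not tested.

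Across the 7 libraries, the genes whose profile was nearest to the mean profile of the 10 markers were Ptk7, Fbxo44, Fam114a2, Rps6ka6 and Rngtt. Their root-mean-square difference from it was 0.06 to 0.07 on the log2 scale, among 8752 other genes with a mean of at least 10 CPM. All 5 were called lower in KAT7 mutants, with log2 fold changes of -0.39 for Rngtt to -0.32 for Rps6ka6, which follows from how they were chosen.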

How the data were processed

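The authors deposited 1 table of read counts per gene for the 7 polyA RNA libraries, with Entrez identifiers and a gene length in bases. Per the submitters' processing notes, reads were counted with featureCounts and the build was mm9. The labels do not give the aligner, annotation release or strand setting; reads of overlapping genes (Sox2 and Sox2ot; long non-coding RNA genes at Hopx, Ptprz1 and Id4) were not separated. Columns were matched to samples by their descriptions. Symbols came from RefSeq GRCm38.p6 by identifier (24176 of 26286 matched); no coordinates were mixed with the mm9 counts.

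Genes were filtered with filterByExpr (minimum count 10), scaled by TMM factors and tested by the edgeR quasi-likelihood test (edgeR 4.0.16, R 4.3.3) with genotype alone in the model. Benjamini-Hochberg adjustment ran over 13681 genes, and calls were made below an adjusted p of 0.05. Fold changes are log2, KAT7 mutant over wild type; SE was obtained as their size divided by the root of F, and 95% intervals are unadjusted. CPM use TMM-scaled library sizes. P-values measure the spread between these mice. The fit was tested on simulated data.

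The members and lists were chosen with earlier results of these data known. The naming rule allowed Kat7, all 10 markers, called genes of the other radial glia list, up to 3 called genes per direction of each further list (up to 2 of the most abundant where none was called) and the 5 nearest profiles. Not all of these are named. Called genes of the intermediate progenitor, mural and meningeal and microglia lists are left out, and those of several other cell type lists are named only in part. Uncalled relatives, uncalled pathway genes and defining cell type markers were named after their values were seen. Alternatives were RLE, upper-quartile or no factors, no filter or at least 1 CPM in 3 libraries, DESeq2 1.42.0, limma-voom (limma 3.58.1), a robust edgeR fit, a replicate block, an adjusted p under 0.01 and each library left out.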

Additional observations from a re-analysis of the deposited data

Results flagged for a closer look

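In 2 of the 10 marker genes, 1 of the 4 KAT7 mutant libraries stood apart from the other mutant libraries. Chance flags about 5% of such groups. For Nes, KAT7 mutant replicate 4 had 5.38 CPM and the others 3.86 to 3.94 CPM, a gap of 0.944 of the group's range. Without it the log2 fold change of Nes was -0.66 (edgeR adjusted p = 0.015). For Nr2e1, KAT7 mutant replicate 2 had 3.48 CPM and the others 5.49 to 5.79 CPM, a gap of 0.872 of the range. Without it the log2 fold change of Nr2e1 was -0.33 (edgeR adjusted p = 0.184).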

How the results depend on the processing

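Ptprz1 (-0.75 to -0.68), Slc1a3 (-0.60 to -0.43) and Vim (-0.30 to -0.24) kept their direction and call in all 17 alternatives, and Hopx stayed uncalled. Of the 10 markers, 3 to 7 fell with 1 library left out: 3 without KAT7 mutant replicate 2 or wild type replicate 2, but 7 when KAT7 mutant replicate 3 was left out. Also 3 fell at an adjusted p under 0.01. At that threshold 1034 of all genes were higher. Of other radial glia genes, 2 rose with RLE factors and 1 to 2 with 1 library left out. Sox2 turned to -0.15 with KAT7 mutant replicate 3 left out and to -0.0097 with wild type replicate 3 left out, in a range of -0.15 to 0.24 over the left-out libraries; the cause was not tested, and 7 to 16 counts a library limit this gene. Replicate numbers did not pair the libraries (correlations of same-numbered deviations across genes of 0.024, 0.012 and -0.034); with a replicate block 4 markers fell, Id4 not being called (-0.57, edgeR adjusted p = 0.0693). Notch pathway falls numbered 2 by DESeq2 and 2 at an adjusted p under 0.01, with 0 rises in both and 2 rises with RLE factors; cell division falls numbered 2 by DESeq2. Mural and meningeal falls were 2 with no count filter or with the CPM filter, 0 at an adjusted p under 0.01 and 3 without wild type replicate 3. Endothelial rises were 1 with no filter, with the block, or with KAT7 mutant replicate 4 or wild type replicate 2 left out. At an adjusted p under 0.01, interneuron rises numbered 3 and microglia rises 2.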
